A study of Rattus norvegicus with 8 samples.

Results

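Genes that activate, inactivate or carry steroid hormones were examined in the livers of male Sprague-Dawley rats given the synthetic glucocorticoid dexamethasone (Dex), the synthetic liver X receptor (LXR) agonist GW3965, or both. The set was named by gene symbol and held 8 genes. By the platform's gene symbols, 7 of these 8 had a probe set in the value table (Hsd11b1, H6pd, Hsd17b2, Serpina6, Cyp17a1, Sult1e1 and Sts), with 1 probe set each, so that 7 of 31042 probe sets are described, and Srd5a1, the steroid reductase of the set, was not analysed here. The study asked how activated LXRs alter the gene response to glucocorticoids. Liver RNA was hybridised to 8 Affymetrix arrays covering the rat genome (n = 2 for each of the 4 treatments), and every group served more than 1 comparison, so that the comparisons are not independent. Vehicle rats received gavage vehicle for 3 days and a saline injection into muscle on the last of them, Dex rats received gavage vehicle and Dex at 1.5 mg/kg, GW3965 rats received GW3965 at 50 mg/kg by gavage for 3 days and saline, and Dex+GW3965 rats received both compounds. Livers were studied 24 hours after the injection. The methods give body weight in place of age and describe no removal of the adrenal glands. In the labels, a treatment has a single liver number and its arrays are told apart by a letter, whereas the methods speak of 2 animals for each treatment. The p-values below therefore measure the spread between these arrays, which may be technical.

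The action of a steroid hormone in a tissue is set not only by the glands that secrete it but also by enzymes that act on it before it meets its receptor, and the liver is a main site of this metabolism. Hsd11b1 reduces inactive 11-keto glucocorticoids back to corticosterone in the endoplasmic reticulum, and H6pd makes the NADPH in that compartment on which the reduction depends. Hsd17b2 oxidises estradiol and testosterone to weaker 17-keto steroids, Sult1e1 inactivates estrogens by adding sulfate, Sts removes sulfate again, Cyp17a1 makes androgen precursors, and the liver secretes corticosteroid-binding globulin, encoded by Serpina6, which carries corticosterone in blood.

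Dex changed most of these transcripts, and the direction depended on the gene. Hsd17b2, Serpina6 and Sult1e1 fell, to 5.46%, 20.4% and 35.2% of vehicle on the linear scale, H6pd rose 2.31-fold and Cyp17a1 rose 1.55-fold, while Hsd11b1 itself stayed within 0.07 log2 units of vehicle by its 95% interval. GW3965 given alone moved the members less, at most by the 0.32 log2 units by which Sult1e1 fell. Given with Dex, it left H6pd, Hsd17b2, Serpina6 and Sult1e1 nearer to vehicle than Dex alone did. All values are log2 signals, in which 1 unit is a doubling, and they were compared with limma across all 16253 probe sets kept, with Benjamini-Hochberg adjusted p-values over all of them and 0.05 as the threshold. Each probe set is set only against itself, since signals of different probe sets are on different scales.

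Under Dex, 6 of the 7 member probe sets passed the threshold, where 41.9% of all probe sets tested passed. Of the 6, 3 were higher, as were 17.2% of all, and 3 lower, as were 24.7%. Under GW3965 alone 3 passed (20.5% of all), 1 higher (5.93%) and 2 lower (14.5%). Dex+GW3965 differed from vehicle in 6 (36.8% of all), 3 higher (15.6%) and 3 lower (21.2%), from Dex in 5 (22.8%), 4 higher (13.4%) and 1 lower (9.38%), and from GW3965 in 6 (35.8%), 3 higher (19%) and 3 lower (16.8%). The shares of members that passed were thus all above those of all probe sets, but so many probe sets passed that the count alone says little. With 2 arrays a group, groups that do not overlap are common too. Members without overlap numbered 6 for Dex against vehicle (69.2% of all probe sets), 6 for GW3965 against vehicle (57.7%), 6 for Dex+GW3965 against vehicle (65.4%), 6 for Dex+GW3965 against Dex (60.3%) and 7 for Dex+GW3965 against GW3965 (67.6%).

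The members' absolute log2 changes had a median of 1.21 under Dex, against 0.174 over all probe sets tested, and of 0.140 under GW3965, against 0.113. The larger sizes under Dex came from H6pd, Hsd17b2, Serpina6 and Sult1e1, each beyond 1 log2 unit.

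**Figure D1:**
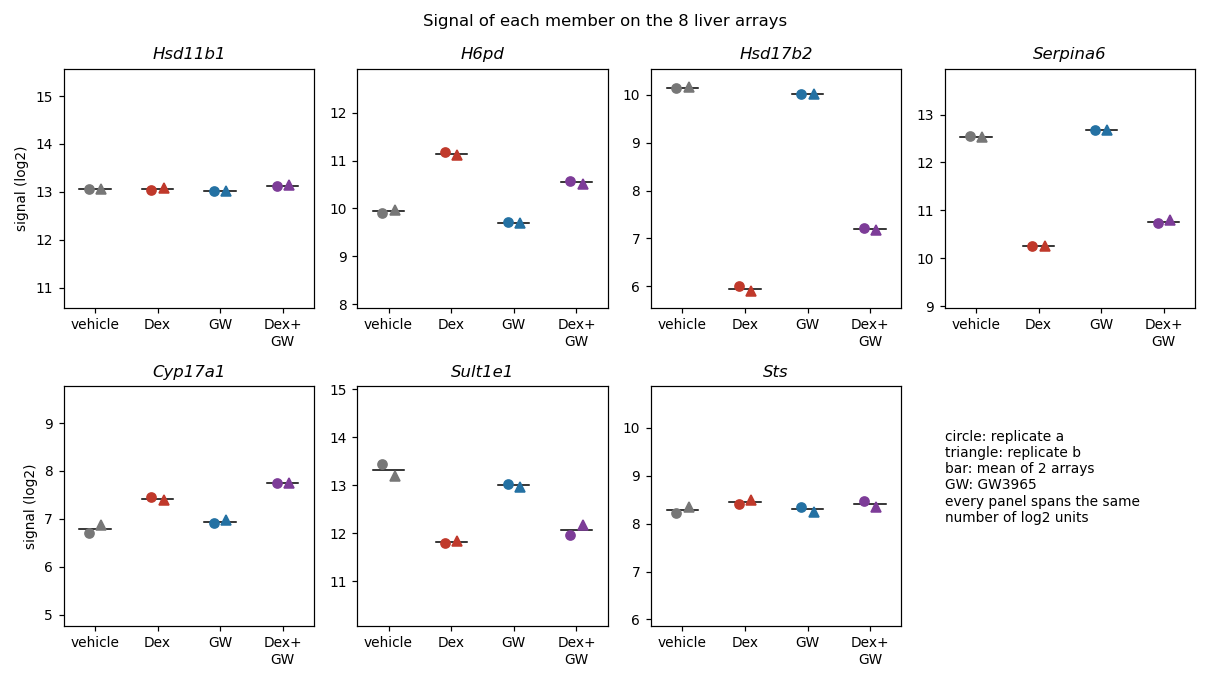
Log2 signal of the 7 member probe sets on each of the 8 arrays, 1 panel a gene with its own vertical axis, with the 4 groups along the horizontal axis, points for arrays and a bar for the mean of each group. Hsd17b2, Serpina6 and Sult1e1 sit lowest with Dex and partly higher with Dex+GW3965, and H6pd shows the reverse order. Every axis covers the same number of log2 units, and the points of Hsd11b1 and Sts span far smaller ranges.

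The first pair of genes acts on the glucocorticoid itself. The log2 signal of Hsd11b1 was 13.05 and 13.05 with vehicle, 13.04 and 13.07 with Dex, 13.03 and 13.02 with GW3965, and 13.13 and 13.13 with Dex+GW3965. The Dex+GW3965 arrays were the highest of the 8, and the other 6 lay within a narrow band in which vehicle and Dex overlapped. The difference of Dex from vehicle was 0.01 (SE 0.03, 95% interval -0.06 to 0.07, limma adjusted p = 0.909). Dex+GW3965 lay 0.08 above vehicle (SE 0.03, adjusted p = 0.0451) and 0.11 above GW3965 (SE 0.03, adjusted p = 0.00832), and 0.08 above Dex, which did not pass (adjusted p = 0.0857). The difference from vehicle kept its call in 3 of 15 limma alternatives, with adjusted p from 0.0441 to 0.286, and lost it when any 1 of the 8 arrays was left out. The difference from GW3965 was lost without GW3965 replicate b (adjusted p = 0.0624) or Dex+GW3965 replicate b (adjusted p = 0.0539), and without a trend in eBayes (adjusted p = 0.155).

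H6pd, which supplies Hsd11b1 with its cofactor, did change. Its signal was 9.91 and 9.97 with vehicle, 11.17 and 11.12 with Dex, 9.71 and 9.69 with GW3965, and 10.58 and 10.51 with Dex+GW3965. No groups overlapped, and the order of the means ran from Dex through Dex+GW3965 and vehicle to GW3965, with each neighbouring pair apart beyond its spread. Dex raised H6pd by 1.21 log2 units (SE 0.04, adjusted p = 2.04e-13), and Dex+GW3965 raised it by 0.61 (SE 0.04, adjusted p = 3.53e-09). GW3965 alone lowered it by a small amount, with a log2 change of -0.24 (SE 0.04, adjusted p = 0.000818). Between the groups that received Dex, the level was lower with GW3965, by -0.60 (SE 0.04, adjusted p = 1.47e-08). Hsd11b1 and its NADPH source thus differed in their response on the same arrays, with no measured Dex change for the one and a 2.31-fold rise for the other.

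Corticosteroid-binding globulin, the blood carrier of corticosterone to which Dex binds only weakly, was the second most strongly lowered member. The signal of Serpina6 was 12.55 and 12.52 with vehicle, 10.25 and 10.25 with Dex, 12.67 and 12.68 with GW3965, and 10.73 and 10.80 with Dex+GW3965. No groups overlapped, and the arrays of each group lay within 0.07 of each other. Dex lowered it 4.89-fold, a log2 change of -2.29 (SE 0.04, adjusted p = 2.8e-18), and Dex+GW3965 lowered it 3.42-fold (log2 change -1.77, adjusted p = 1.2e-16). With Dex present, GW3965 arrays were higher by 0.52 (SE 0.04, adjusted p = 9.14e-09). GW3965 alone gave a change of 0.14 (SE 0.04, adjusted p = 0.0106), a call that was lost without vehicle replicate b (adjusted p = 0.0521), GW3965 replicate a (adjusted p = 0.061) or GW3965 replicate b (adjusted p = 0.0908), and without a trend in eBayes (adjusted p = 0.138).

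The sex steroid enzymes showed the largest change of the set. The signal of Hsd17b2 was 10.14 and 10.16 with vehicle, 6.00 and 5.90 with Dex, 10.02 and 10.01 with GW3965, and 7.22 and 7.18 with Dex+GW3965. The Dex arrays lay just above the array median of about 5.49 that was taken as the level of background, and the Dex+GW3965 arrays lay clearly between Dex and vehicle. Dex lowered Hsd17b2 18.3-fold (log2 change -4.19, SE 0.06, adjusted p = 1.4e-18), and Dex+GW3965 lowered it 7.71-fold (log2 change -2.95, SE 0.06, adjusted p = 1.07e-16). The level with both compounds was 2.37-fold that with Dex (log2 difference 1.25, SE 0.06, adjusted p = 4.67e-11). Vehicle and GW3965, the highest neighbours in the order, did not differ by the test, at -0.13 (95% interval -0.26 to -0.01, adjusted p = 0.127), although their arrays did not overlap.

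Cyp17a1, which is expressed mainly in steroid-secreting glands, lay above but near the background level in these livers. It was 6.70 and 6.87 with vehicle, 7.46 and 7.38 with Dex, 6.92 and 6.97 with GW3965, and 7.75 and 7.75 with Dex+GW3965. The arrays with Dex lay above those without it, and those with both compounds lay highest. The log2 change was 0.64 with Dex (SE 0.08, adjusted p = 4.6e-06), 0.16 with GW3965 (SE 0.08, adjusted p = 0.2) and 0.96 with Dex+GW3965 (SE 0.08, adjusted p = 3.18e-08). Cyp17a1 was the one called Dex response of the set that was farther from vehicle with both compounds than with Dex alone, by 0.33 (SE 0.08, adjusted p = 0.007). That call was lost without Dex replicate b (adjusted p = 0.0729). Among 6 measured genes fixed as markers of adrenal cortex and testis, where Cyp17a1 has its main role, 5 (Star, Cyp11a1, Cyp11b1, Cyp21a1 and Hsd17b3) had means at or below the background level in every group and were not tested. The remaining one, Insl3, was tested and did not pass in any comparison with vehicle.

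The remaining pair of enzymes acts in opposite directions on steroid sulfates. The signal of Sult1e1, the estrogen sulfotransferase, was 13.44 and 13.20 with vehicle, 11.78 and 11.84 with Dex, 13.03 and 12.96 with GW3965, and 11.95 and 12.18 with Dex+GW3965. No groups overlapped, but the vehicle arrays were 0.247 apart, the largest gap between arrays of a group among the members. Dex lowered it 2.84-fold (log2 change -1.51, SE 0.07, adjusted p = 4.03e-12), Dex+GW3965 lowered it 2.38-fold (log2 change -1.25, SE 0.07, adjusted p = 7.46e-11) and GW3965 lowered it 1.25-fold (log2 change -0.32, SE 0.07, adjusted p = 0.00225). The 0.26 by which Dex+GW3965 lay above Dex (SE 0.07, adjusted p = 0.0105) was lost without Dex replicate a (adjusted p = 0.0895) or Dex+GW3965 replicate b (adjusted p = 0.214), and without a trend in eBayes (adjusted p = 0.128). The GW3965 call was lost without GW3965 replicate b (adjusted p = 0.0525) and without a trend (adjusted p = 0.0738).

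Sts, the sulfatase that returns sulfated steroids to their free form, changed little. Its signal was 8.22 and 8.35 with vehicle, 8.41 and 8.50 with Dex, 8.34 and 8.25 with GW3965, and 8.47 and 8.35 with Dex+GW3965. The GW3965 and Dex+GW3965 arrays overlapped with those of vehicle, and the Dex arrays lay just above. The Dex difference of 0.17 (SE 0.07, 95% interval 0.03 to 0.32, adjusted p = 0.0494) passed by a small margin and kept its call in 5 of 14 limma alternatives. It was lost when vehicle replicate a, either Dex array or either GW3965 array was left out, with adjusted p up to 0.317, with the array letter as a replicate block (adjusted p = 0.0621), with only the groups compared (adjusted p = 0.063), with no filter on low values (adjusted p = 0.0843) and without a trend in eBayes (adjusted p = 0.109). The other differences did not pass, with 95% intervals of -0.13 to 0.16 for GW3965 and -0.02 to 0.27 for Dex+GW3965 against vehicle.

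**Figure D2:**
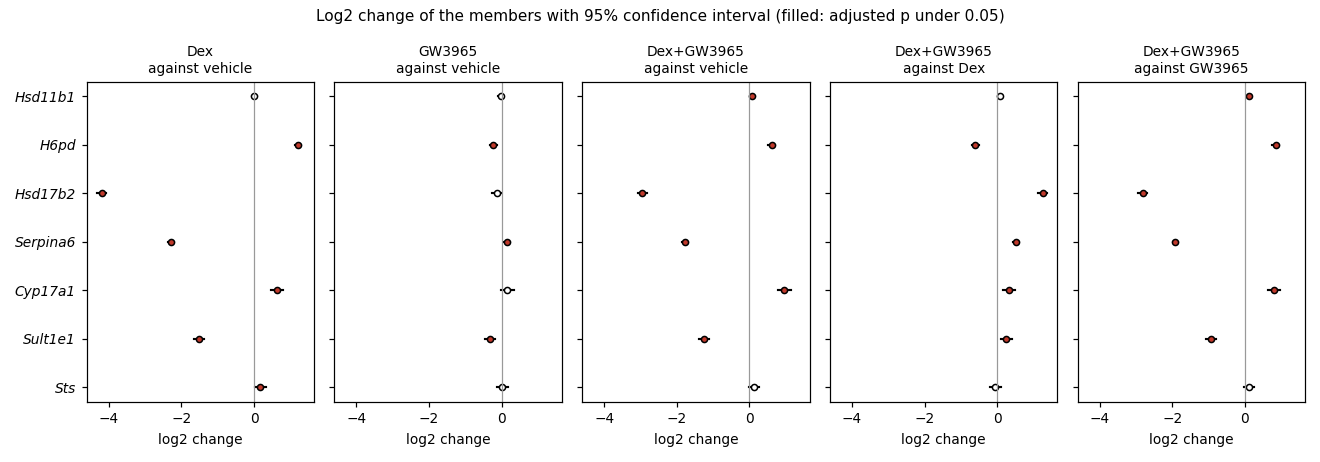
Log2 change of the 7 members in 5 comparisons, 1 panel a comparison, with points for limma estimates, horizontal lines for 95% intervals, and filled points for an adjusted p under 0.05. Hsd17b2 lies farthest left under Dex, at -4.19, H6pd is highest at 1.21, and under GW3965 alone the largest change is that of Sult1e1, at -0.32.

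Whether the Dex change itself differed with GW3965 was tested by the interaction of the compounds, the Dex change in rats given GW3965 minus that in rats given gavage vehicle. It passed for 4 of the 7 members, where 22.8% of all probe sets passed, 3 higher (15.8% of all) and 1 lower (6.93%). In each of the 4 the Dex change was smaller with GW3965. For Hsd17b2 it was -2.81 with GW3965 against -4.19 without, a difference of 1.38 (SE 0.08, adjusted p = 2.04e-09), so that 67.1% of the log2 change was left. For Serpina6 83.5% was left (difference 0.38, SE 0.05, adjusted p = 3.78e-05). For Sult1e1 61.6% was left (difference 0.58, SE 0.10, adjusted p = 0.000252), and for the induced gene H6pd 69.9% was left (difference -0.36, SE 0.06, adjusted p = 0.00033). The difference thus went up for the 3 lowered genes and down for the raised one. These 4 calls passed in all 13 limma alternatives run for the interaction. Cyp17a1 gave 0.17 (95% interval -0.07 to 0.41, adjusted p = 0.319), Hsd11b1 0.10 (adjusted p = 0.0903) and Sts -0.06 (adjusted p = 0.689), none of which passed. For H6pd (-0.24) and Sult1e1 (-0.32), GW3965 alone also lowered the level from which the Dex change starts. A lower start makes a rise such as that of H6pd larger and a fall such as that of Sult1e1 smaller. The Sult1e1 difference of 0.58 thus held this lower start as well as the 0.26 by which Dex+GW3965 lay above Dex.

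**Figure D3:**
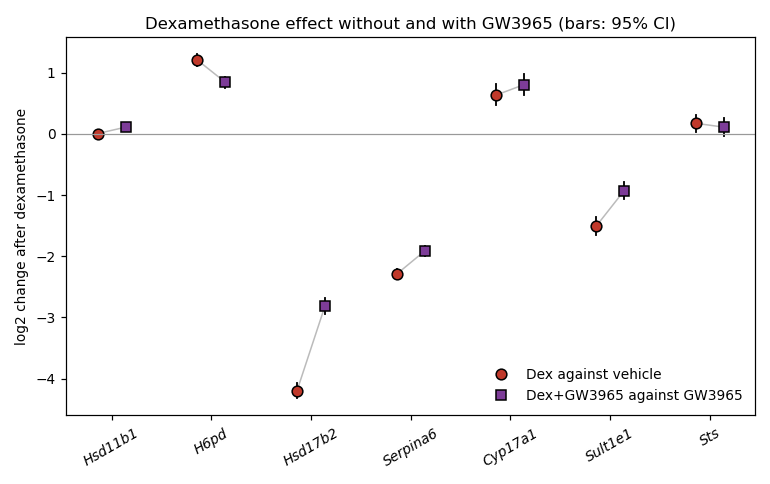
The Dex change of each member on the log2 scale, without GW3965 (Dex against vehicle) and with it (Dex+GW3965 against GW3965). The changes of H6pd, Hsd17b2, Serpina6 and Sult1e1 are closer to 0 with GW3965, while those of Cyp17a1, Hsd11b1 and Sts did not differ by the test.

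For 3 of the 7 members, H6pd, Sult1e1 and Sts, the RefSeq promoter table held the 250 bases before and 50 after a listed start (build GRCr8, printed along the gene's strand). They are shown because they were the only members with a window, and they belong to a gene that rose, a gene that fell and a gene that changed little with Dex. Capitals mark any match to the hexamer AGAACA or its complement TGTTCT, an arm of the glucocorticoid receptor's element, or to AGGTCA or its complement TGACCT, an arm of elements bound by LXR and related receptors. The H6pd window lies at chr5:165753076-165753375 on the minus strand, that of Sult1e1 at chr14:20701230-20701529 and that of Sts at chrX:46102510-46102809, both on the plus strand. The annotated gene begins at 20700444 for Sult1e1, before its window, and at 46102524 for Sts, near the upstream edge of its window. The window of Sult1e1 and nearly all of that of Sts thus lie inside the annotated gene. Positions below count from the listed start, not from the start of the annotated gene.
H6pd: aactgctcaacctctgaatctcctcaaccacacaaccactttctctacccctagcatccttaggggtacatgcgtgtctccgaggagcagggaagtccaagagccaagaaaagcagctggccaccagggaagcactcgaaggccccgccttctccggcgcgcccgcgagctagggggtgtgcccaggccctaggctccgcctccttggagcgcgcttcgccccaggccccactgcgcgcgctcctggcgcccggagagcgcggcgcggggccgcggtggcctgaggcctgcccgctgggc
Sult1e1: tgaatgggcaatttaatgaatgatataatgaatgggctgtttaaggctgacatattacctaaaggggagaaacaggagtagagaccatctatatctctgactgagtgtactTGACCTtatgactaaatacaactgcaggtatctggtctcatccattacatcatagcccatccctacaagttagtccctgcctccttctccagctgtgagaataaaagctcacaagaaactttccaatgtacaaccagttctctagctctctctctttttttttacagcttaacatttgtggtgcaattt
Sts: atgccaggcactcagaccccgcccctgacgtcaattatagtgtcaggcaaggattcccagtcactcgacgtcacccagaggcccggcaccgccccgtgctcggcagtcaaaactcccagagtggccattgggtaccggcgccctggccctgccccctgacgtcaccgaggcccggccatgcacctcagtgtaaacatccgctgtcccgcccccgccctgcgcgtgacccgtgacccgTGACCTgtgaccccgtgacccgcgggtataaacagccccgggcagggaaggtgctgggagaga

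AGAACA or TGTTCT was in none of the 3 windows and in 20.7% of 33469 promoters of the same length. TGACCT was found once in Sult1e1, from position -139, and once in Sts, from position -13, and neither it nor AGGTCA was in H6pd, against 16.2% of all promoters with either. The full element, AGAACA followed after any 3 bases by TGTTCT, was in 0.0149% of promoters and in none of these. The H6pd and Sts windows were rich in G and C, at 68.3% and 66.7% of bases, whereas Sult1e1 had 39.3%, against a median of 51.7% over all promoters. A match describes the letters in this window and no binding was measured in these data.

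The wider steroid pathway was described from 8 lists naming 98 genes, none of them among the set above. Of these 74 had a probe set and 57 were tested, 1 probe set a gene. Dex raised 14, lowered 30 and left 13 without a call, where 17.2% of all probe sets were higher and 24.7% lower. GW3965 raised 7 and lowered 14, against 5.93% and 14.5% of all, and Dex+GW3965 raised 14 and lowered 24 against vehicle, where 15.6% and 21.2% of all did so. Among 8 tested genes of glucocorticoid inactivation and A-ring reduction, 4 fell with Dex (Akr1d1, Hsd11b2, Akr1c3 and Akr1c14), with a list median of -0.07 against -0.01 over all probe sets. The 1 that rose was Slc37a4, which is no inactivating enzyme but a transporter that feeds H6pd. Akr1d1, which reduces the A-ring of corticosteroids, fell by 1.49 (SE 0.04, adjusted p = 2.55e-15). A second tested Akr1d1 probe set gave a Dex change of -2.05. Its interaction of the compounds was 1.16, against 0.19 for the brighter probe set, so the 2 differed in how far the Dex change shrank with GW3965.

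Hsd11b2, which inactivates corticosterone chiefly in kidney, lay at 7.21 and 7.45 with vehicle, 6.64 and 6.11 with Dex, 7.16 and 7.28 with GW3965, and 6.11 and 6.28 with Dex+GW3965, a Dex change of -0.95 (SE 0.14, adjusted p = 1.56e-05). Slc37a4, the transporter that brings glucose-6-phosphate, the substrate of H6pd, into the endoplasmic reticulum, was 10.98 and 11.09 with vehicle, 12.23 and 12.21 with Dex, 10.78 and 10.87 with GW3965, and 12.11 and 12.11 with Dex+GW3965. It rose with Dex by 1.19 (SE 0.04, adjusted p = 1.36e-13) and fell slightly with GW3965, at -0.21 (adjusted p = 0.00151). Of 4 tested genes that supply NADPH in the cytosol, Idh1 fell by 0.51 and Me1 by 0.50 with Dex, and Pgd and Pgls did not pass, at 0.05 (adjusted p = 0.449) and -0.14 (adjusted p = 0.0779).

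Among 9 other 17-beta-hydroxysteroid dehydrogenases, 4 rose and 1 fell with Dex. Hsd17b7 rose by 0.87 (adjusted p = 9.98e-10), whereas Hsd17b6, an androgen-metabolising relative, fell by 0.67 with Dex (adjusted p = 1.57e-11) and by 0.87 with GW3965 (adjusted p = 3.91e-12). None of these moved as far as Hsd17b2. Of the 3 tested 3-beta-hydroxysteroid dehydrogenases, 2 fell and 1 rose with Dex.

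Sulfation genes other than Sult1e1 and Sts were divided, with 5 lower and 4 higher of 10 with Dex and a list median of -0.13, the same with the genes near background at their bounds. Sult1c3 fell by 1.91 (adjusted p = 2.41e-17), and Papss2, which makes the sulfate donor, fell by 1.12 (adjusted p = 1.71e-13). Sult1c2 went below the background level with Dex and fell by 1.94 on the log2 scale or more. In the opposite direction, Sult2b1 rose from below that level by at least 0.81.

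Of the 7 tested genes of glucuronidation, the other route of conjugation, 5 fell and 1 rose with Dex. The 1 without a call, Ugt2b, gave 0.11 (adjusted p = 0.321) with its brighter probe set. Its other tested probe set gave 0.90, so the 2 differed in size. Of 12 cytochromes and redox partners, 9 fell and 3 rose with Dex, led by Cyp2c12 at -1.92 (adjusted p = 5.57e-13) and Cyp3a9 at 1.73 (adjusted p = 2.21e-13). Por, which passes electrons to Cyp17a1 and the other microsomal cytochromes, rose by 1.54 with Dex (adjusted p = 5.31e-13) and by less with Dex+GW3965, at 0.64, an interaction of -1.03 (SE 0.08, adjusted p = 8.31e-08). The glucocorticoid receptor gene Nr3c1 was 9.04 and 8.90 with vehicle, 8.25 and 8.20 with Dex, 9.31 and 9.21 with GW3965, and 8.78 and 8.87 with Dex+GW3965. It fell by 0.75 with Dex (SE 0.06, adjusted p = 1.86e-08), rose by 0.29 with GW3965 (adjusted p = 0.00277), and had an interaction of 0.31 (adjusted p = 0.0148). These are values of the brighter of 2 tested Nr3c1 probe sets. The other gave -0.25 with Dex and 0.37 with GW3965, the same signs, but an interaction of -0.29, so the probe sets disagreed on whether the Dex change was smaller or larger with GW3965. Over all 8 lists the interaction passed in 29 of the 57 genes, 23 higher and 6 lower, where 22.8% of all probe sets passed, 15.8% higher and 6.93% lower. The split of such calls over all probe sets moved with the scaling, from 69.5% higher as deposited to 53.5% after quantile normalization.

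**Figure D4:**
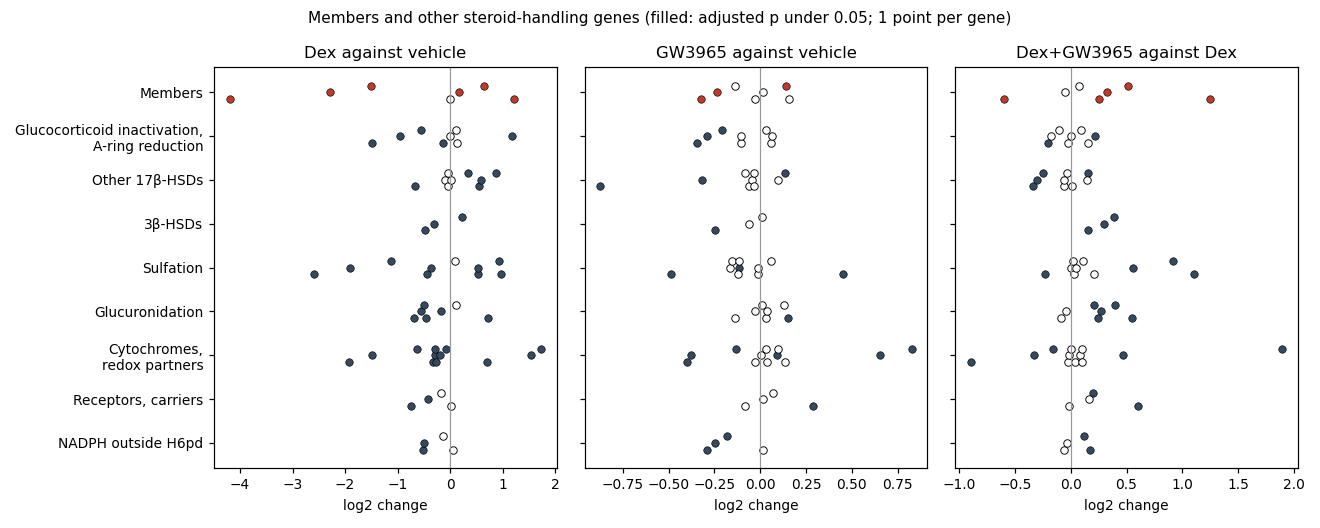
Log2 change of the members and of the tested genes in the 8 lists of other steroid genes, with a point for each gene. The panels show Dex against vehicle, GW3965 against vehicle and Dex+GW3965 against Dex, and filled points have an adjusted p under 0.05. The cytochrome list has 9 of 12 genes lower with Dex, and most genes of most lists did not pass under GW3965 alone.

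Genes whose pattern over the 8 arrays was most like that of a strongly changed member were sought by Pearson correlation among 813 probe sets with group means spanning at least 1 log2 unit, as a description over arrays that fall into 4 groups and so are not independent points. H6pd was most like Mat1a (r = 0.998) and Fkbp5 (r = 0.997). Hsd17b2 was most like Stmp1 (r = 0.9997), then Sox4 (r = 0.998) and RT1-Bb (r = 0.997). Serpina6 was most like Car3 (r = 0.999) and Slc17a2 (r = 0.997). Sult1e1 was most like Gstt1 (r = 0.993) and Gsta3 (r = 0.991). Such values were not particular to the named genes. Of the 813 probe sets, 13 had r over 0.99 with H6pd, 40 with Hsd17b2, 30 with Serpina6 and 3 with Sult1e1. Fkbp5 had a far larger Dex change than H6pd, at 3.18, and Car3 a larger one than Serpina6, at -3.65.

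The livers showed the markers of their labelled tissue. The mean log2 signal of 9 hepatocyte markers ranged from 13.63 to 13.83 over all arrays. It was 13.71 to 13.75 with vehicle, 13.82 to 13.83 with Dex, 13.63 to 13.65 with GW3965 and 13.82 to 13.83 with Dex+GW3965. Against vehicle, 2 were higher and 3 lower with Dex, 4 lower and 0 higher with GW3965, and 3 higher and 3 lower with Dex+GW3965. Markers of other cells moved with the treatments as well. The mean of 7 stellate cell markers was 8.21 to 8.27 with vehicle and 7.70 to 7.78 in the 3 treated groups, with 5 lower and 1 higher under Dex. The mean of 5 sinusoidal endothelial markers was 8.59 to 8.65 with vehicle and 8.23 to 8.26 with Dex, with 3 lower. That of 7 Kupffer cell markers was 8.37 to 8.42 with vehicle and 8.22 with Dex, with 3 lower and 1 higher. With GW3965 alone it was 8.58 to 8.62, with 3 higher than vehicle and 0 lower. Single markers moved farther than their list, such as the stellate cell gene Lrat, which fell by 1.24 with Dex. The mean of 3 neutrophil markers was 5.60 to 5.64 with vehicle and 4.29 to 4.44 with Dex. It was 4.34 to 4.36 with GW3965 and 4.62 to 4.70 with Dex+GW3965. Both tested ones were lower than vehicle in all 3 treated groups, and Csf3r lay at background in every group. Of 6 T, NK and B cell markers, 5 (Cd3e, Cd3d, Cd8a, Cd2 and Nkg7) lay at background in every group. The 1 tested, the B cell gene Cd79b, was lower than vehicle with Dex (-0.57), GW3965 (-0.52) and Dex+GW3965 (-0.82). The mean of 3 erythrocyte markers was 9.55 to 9.67 with vehicle, 9.25 to 9.33 with Dex, 9.77 to 9.84 with GW3965 and 8.75 to 8.76 with Dex+GW3965, where all 3 were lower than in each other group. That of 3 cholangiocyte markers was 6.27 to 6.31 with vehicle and 5.78 to 5.94 with Dex. With GW3965 it was 5.99 to 6.05, and with Dex+GW3965 6.23. Krt7 lay at background in every group, and the 2 tested markers differed. Against vehicle, Krt19 changed by -0.91 with Dex, -0.50 with GW3965 and -0.69 with Dex+GW3965, its treated arrays all under the background level. Epcam was lower with GW3965 (-0.27) and higher with Dex+GW3965 (0.70), and was 0.88 higher with Dex+GW3965 than with Dex. The endothelial mean was also lowest with Dex+GW3965, at 8.01 to 8.07. In bulk liver, fewer cells of a type and less RNA per cell cannot be told apart, and the part of these shifts in the changes of the members was not tested.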

How the data were processed

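The authors deposited log2 signals, which the methods describe as summaries of perfect-match probes alone, background-subtracted the MAS way, with probes first checked against UniGene. The submitters' processing notes name MAS5, with no version. Normalization between arrays is not given in the sources used here. The log2 scale was inferred from the range of values. Array medians ran from 5.48 to 5.52, so the values were used as deposited. Of 31099 probe sets, 57 Affymetrix controls were removed, and 16253 of the remaining 31042 exceeded their array's median on at least 2 arrays and were tested. All 7 members passed, each above that median on all 8 arrays. Means under 5.49, the mean of the medians, counted as background. No detection calls were used.

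Groups were taken from the labels. All 8 arrays entered a single model of group means, fitted in R 4.3.3 by limma 3.58.1 (lmFit, eBayes with an intensity trend, 4 residual degrees of freedom and a prior of 12.7), tested on simulated data, in 6 comparisons, with p-values adjusted by Benjamini-Hochberg. An exact permutation test of 2 against 2 arrays cannot go below p = 0.333 and was not used. Every member probe set was named. Other genes were drawn from up to 4 called genes of the largest change in each list and comparison, 1 probe set a gene (the brightest). They were also drawn from the 3 genes most like each member whose group means span 1 log2 unit. Hsd11b2, Sult2b1 and the other listed genes named above met these rules, but not every gene that met them is named. The levels shown for Hsd11b2, Slc37a4 and Nr3c1 were chosen after their values were seen. So were the Dex values of Pgd, Pgls, Akr1c14 and Ugt2b and the single markers Lrat, Epcam, Krt19 and Cd79b. Members and lists were chosen with earlier results of these data known. Symbols came from the platform annotation, and Sult1e1 was matched to RefSeq by its accession. Alternatives were quantile normalization, eBayes without a trend, no filter or a filter on mean signal, only the groups compared, the array letter as a block, each array left out, and the methods' t-test, run on the log ratios of each array of a group to the mean of the other group.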

Additional observations from a re-analysis of the deposited data

Results flagged for a closer look

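The Dex change differed with GW3965, by limma's interaction test, for 4 members. The Dex change with GW3965 minus that without it was 1.38 on the log2 scale for Hsd17b2 (adjusted p = 2.04e-09), 0.58 for Sult1e1 (adjusted p = 0.000252), 0.38 for Serpina6 (adjusted p = 3.78e-05) and -0.36 for H6pd (adjusted p = 0.00033). All 4 arrays given Dex lay below all 4 given none for Hsd17b2, Sult1e1 and Serpina6, and above them for H6pd, so the difference was one of size and not of direction. Groups of 2 arrays were too small to look for single arrays far from the rest.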

How the results depend on the processing

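Of 30 member calls over the 6 comparisons, 23 held under every limma alternative and 7 were lost under at least 1. Those 7 were the Sts call under Dex, the Hsd11b1 calls of Dex+GW3965 against vehicle and GW3965, the Serpina6 and Sult1e1 calls under GW3965, and the Cyp17a1 and Sult1e1 calls of Dex+GW3965 against Dex. Without a trend in eBayes, where 2222 of all 16253 probe sets passed under GW3965, 1 member did. With 1 array left out, that count ran from 1 to 3. By the methods' t-test at its own threshold 5, 3, 5, 5 and 5 members passed in the 5 comparisons between groups. Of all 16253 probe sets, 4335, 2818, 3789, 2732 and 3741 did so. After Benjamini-Hochberg adjustment 0 members passed in each, with 31, 19, 28, 22 and 25 of all probe sets. The only changes of sign were in values that had not passed, when 1 array was left out. The change of Hsd11b1 under Dex then ranged from -0.010 to 0.021, and those of Sts from -0.052 to 0.082 under GW3965, from -0.106 to 0.010 for Dex+GW3965 against Dex, and from -0.131 to 0.0037 for the interaction. The cause was not tested.

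Deviations of same-lettered arrays correlated at -0.232 to 0.0831 between groups, so no strong positive link by array letter was seen. Whether the letters pair samples cannot be told from these values. With the letter as a replicate block 5, 3, 5, 5, 6 and 4 members passed, against 6, 3, 6, 5, 6 and 4 without it. Of all 16253 probe sets, 6618, 3099, 5800, 3522, 5654 and 3543 passed with the block. The crossed letters of Dex+GW3965 and vehicle, chosen after seeing the data, gave 6 members for that comparison, and 6198 of all probe sets. Calls over all probe sets numbered 6806 for Dex, 5980 for Dex+GW3965 against vehicle and 5825 against GW3965, and by the methods' t-test 4335, 3789 and 3741. The 3325 calls under GW3965 became 2110 without GW3965 replicate a and 1791 without replicate b, and the 3698 of Dex+GW3965 against Dex became 2376 without Dex replicate b and 2343 without Dex+GW3965 replicate b. Quantile normalization raised the share of higher calls under GW3965 from 29.0% to 44.6% and lowered that of the interaction from 69.5% to 53.5%. The counts of members called stayed at 3 and 4, with 2713 and 3429 of all probe sets called. The number of arrays limits the precision, and Hsd17b2 with Dex lay near the background level of 5.49.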
